A study of Bos taurus with 6 samples.

Results

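The secreted Wnt antagonists around SFRP1 were described as a set of 9 genes of the bovine genome: SFRP1, SFRP2, SFRP4, SFRP5, FRZB, DKK1, DKK2, DKK3 and WIF1. The members were chosen by gene symbol, and all 9 were found among the 23475 genes of the expression table. Wnt proteins are secreted signals that bind Frizzled receptors and the co-receptors LRP5 and LRP6 and, in the canonical branch, keep β-catenin from being degraded. The SFRP proteins and FRZB carry a cysteine-rich domain like that of Frizzled and bind Wnt outside the cell, WIF1 binds Wnt through a domain of its own, and DKK1 and DKK2 block LRP5 and LRP6. In fat tissue, canonical Wnt signaling is known to hold precursor cells back from becoming adipocytes, so these antagonists are studied in adipogenesis.

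RNA was sequenced from cells isolated from subcutaneous fat of calves and transfected for 48 h. The agomir group (3 libraries) received the bta-miR-484 agomir, a chemically modified double-stranded RNA that mimics this miRNA, and the agomir NC group (3 libraries) received a negative control of the same kind. It is not stated if replicate libraries derive from separate calves or from parallel cultures, so p-values measure the spread between these samples, which may be technical. Values are FPKM, fragments scaled by transcript length and by the library's mapped fragments, so levels of different genes can be set side by side. The depth of the libraries is unknown, and the summed FPKM per library lay between 365977 and 379361.

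The labels name the cells adipocytes, and the study's methods use both that word and preadipocytes. Genes of mature adipocytes were low in every library. The 12 genes of that list summed to 13.2, 14.6 and 14.2 FPKM in the agomir group, against 14.7, 13.3 and 13.1 FPKM in the agomir NC group, and LPL was the most abundant, at a mean of 3.73 FPKM. ADIPOQ, at a mean of 0.14 FPKM, and LEP, at a mean of 0.0091 FPKM, were close to 0. The collagen genes COL3A1, COL1A1 and COL1A2 had means of 7623, 5979 and 5721 FPKM, and the fibroblast and precursor markers PDGFRA and PDGFRB had means of 166 and 133 FPKM. DLK1, another precursor marker, was listed at 0 in all 6 libraries. The label adipocyte was therefore not matched by the defining markers of mature adipocytes.

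The members spanned a wide range of levels. SFRP4 was the most abundant, with values between 767.5 and 954.7 FPKM, and ranked between 40 and 51 among all genes of a library. DKK3 followed at 57.8 to 65.8 FPKM, then SFRP2 at 2.77 to 4.50 FPKM and SFRP1 at 2.96 to 4.81 FPKM. DKK2 lay between 0.247 and 0.698 FPKM. The other 4 members were at or close to 0: FRZB was above 0 in 1 library, at 0.128 FPKM, SFRP5 in 2 libraries, at 0.0672 and 0.0314 FPKM, and DKK1 and WIF1 were listed at 0 in all 6 libraries, as were 5008 of all genes. An entry of 0 in a table without counts can be a failed estimate, so no fold was taken from it.

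Neighbours in this order were set side by side within each library, as a description, since the same 6 libraries set the order. The mean FPKM of SFRP4 was 13.8 times that of DKK3, that of DKK3 was 15.8 times that of SFRP2, and that of SFRP1 was 9.25 times that of DKK2. Each of these 3 pairs kept its order in 6 of 6 libraries. SFRP2 and SFRP1 had no common order over the 6 libraries, with a ratio of mean FPKM of 1.03. SFRP2 was the higher in the 3 agomir libraries and SFRP1 in the 3 agomir NC libraries.

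**Figure D1:**
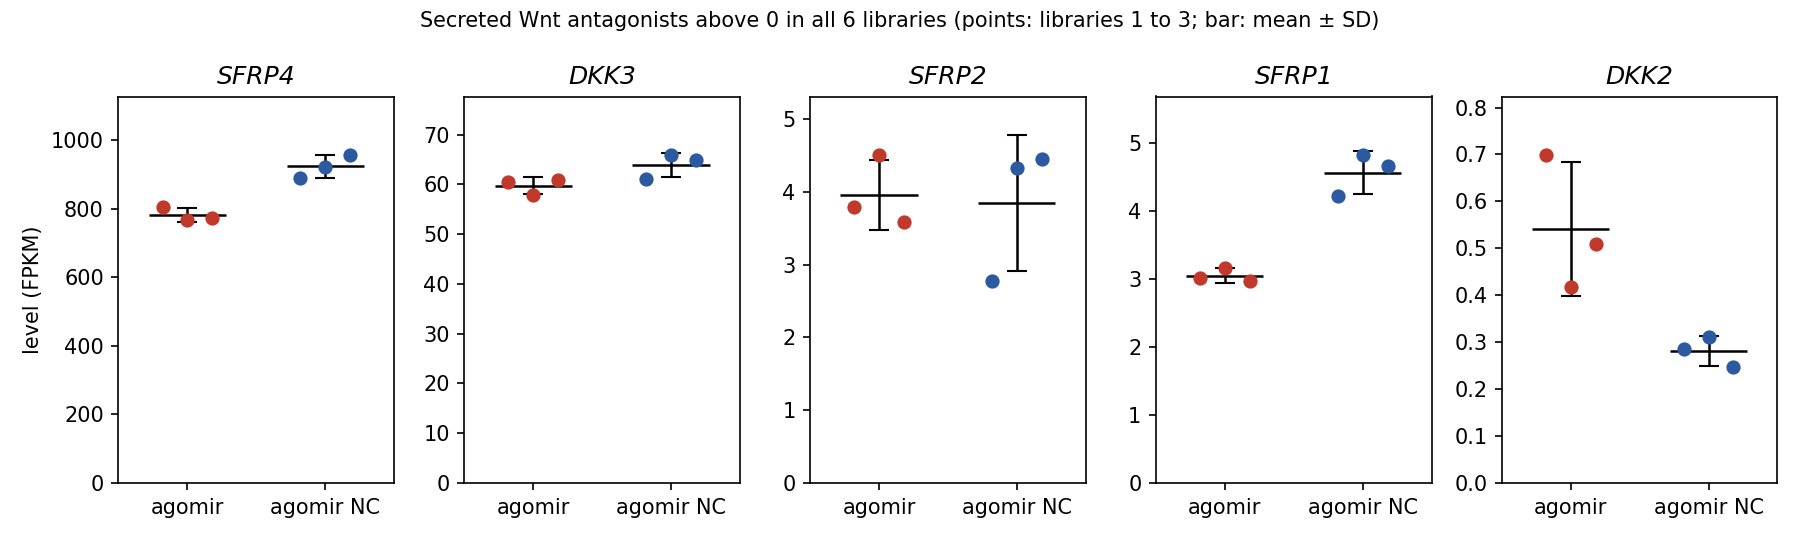
FPKM of the 5 members above 0 in all 6 libraries, in the agomir and agomir NC libraries, each panel with its own axis from 0. Points are libraries and bars are the mean ± SD of 3 libraries; the agomir points of SFRP4, DKK3 and SFRP1 lie below all agomir NC points, those of DKK2 lie above, and those of SFRP2 overlap.

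Of the 9 members, 4 averaged 0.5 FPKM or more and entered the limma test on log2(FPKM + 0.5), a scale on which the change of low genes is understated. At an unadjusted p under 0.05, 2 of these 4, SFRP1 and SFRP4, were lower with the agomir and 0 were higher. In all 12422 genes tested, 4.31% were lower at that threshold and 10.9% passed it in either direction. After Benjamini-Hochberg adjustment over all genes, 0 of the 4 members were under 0.05, against 0.00805% of all genes, or 1 gene. The agomir libraries lay below all agomir NC libraries in 3 of the 4 members, which held for 6.36% of all genes tested. The median log2 fold change was -0.17 for the 4 members and 0.013 for all genes tested. The set was chosen with the difference of SFRP1 known, so these counts and this median are descriptive only. The 5 members below the filter were not tested in this fit.

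SFRP1, the gene the study followed as a target of the miRNA, binds Wnt through its Frizzled-like domain. With the agomir its level was 3.01, 3.17 and 2.96 FPKM, against 4.21, 4.81 and 4.66 FPKM with the agomir NC. The 3 agomir libraries lay close together and all below the lowest agomir NC library. The mean level was 0.668 times that of the agomir NC group, 3.05 ± 0.105 against 4.56 ± 0.312 FPKM (SD, n = 3 each). The limma fold change was taken on log2(FPKM + 0.5), which understates the change of a gene at this level. It was -0.51 (95% interval -0.71 to -0.31, standard error 0.088, limma adjusted p = 0.122). By exact two-sided permutation p was 0.1, the smallest that 3 against 3 libraries allow. SFRP1 ranked 19 by p among the 12422 genes, and 50 from the lowest by log2 fold change. Its difference was known when the set was chosen, so it adds no independent support. In bulk RNA, fewer cells of a type and less RNA per cell cannot be told apart.

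SFRP1 transcript was also measured by qPCR in the study, which reported it lower with the agomir by qPCR and in its own reading of the sequencing. The study also reported that the miRNA lowered a luciferase reporter with the intact SFRP1 target site and not with a mutated one. The qPCR primer pair is shown because it defines the stretch of the gene that assay read. Each primer has 20 bases and is written 5′ to 3′ as given in the supplementary primer list.
SFRP1 forward: gctcaagtgcgacaagtttc
SFRP1 reverse: gctcaatgatggcttcagac

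SFRP4, a second Wnt-binding family member, carried most of the FPKM of the set. Its agomir libraries gave 803.4, 767.5 and 772.6 FPKM, and its agomir NC libraries 890.3, 922.4 and 954.7 FPKM. The groups did not overlap, and the gap between the highest agomir and the lowest agomir NC library exceeded the SD of either group. The mean was 0.847 times that of the agomir NC group, 781 ± 19.4 against 922.5 ± 32.2 FPKM (SD, n = 3 each). The limma estimate on the log2 scale was -0.24 (95% interval -0.33 to -0.15, standard error 0.041, adjusted p = 0.122). SFRP4 ranked 20 by p over all genes tested, directly after SFRP1. Among the 527 genes averaging 100 FPKM or more, a limit chosen after the values were seen, SFRP4 ranked 3 by p. At an unadjusted limma p under 0.05, 51 of these 527 genes were lower and 23 higher. Over all 12422 genes tested the balance was the other way, with 535 lower and 824 higher. The median log2 fold change of the 527 abundant genes was -0.029.

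SFRP4 made up between 91.9% and 92.9% of the summed FPKM of the 9 members in every library. The sum was 871, 834 and 841 FPKM with the agomir and 959, 998 and 1029 FPKM with the agomir NC. Without SFRP4 the sum was 67.9, 66.0 and 68.1 FPKM against 68.5, 75.3 and 74.2 FPKM, again without overlap.

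SFRP2, the SFRP family member closest to SFRP1 in level, gave 3.79, 4.50 and 3.58 FPKM with the agomir and 2.77, 4.33 and 4.45 FPKM with the agomir NC. The groups overlapped, and agomir NC library 1 was the lowest of all 6. The log2 fold change was 0.054 (95% interval -0.30 to 0.41, standard error 0.16, limma adjusted p = 0.935), and the interval spans changes in either direction of the size seen in SFRP4. The sign of this estimate turned to -0.14 without agomir NC library 1 and to -0.032 without agomir library 2.

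Ratios within a library set the members against each other, for 4 pairs chosen after the values were seen. The FPKM of SFRP4 was 267, 242 and 261 times that of SFRP1 with the agomir and 211, 192 and 205.0 times with the agomir NC. SFRP1 was thus lower relative to SFRP4 in every agomir library, by a difference of -0.27 in the log2 ratio. The FPKM of SFRP2 was 1.26, 1.42 and 1.21 times that of SFRP1 with the agomir and 0.658, 0.9001 and 0.955 times with the agomir NC, so the order of these genes differed between the groups. On the log2(FPKM + 0.5) scale the difference was -0.57 for SFRP1 against SFRP2, -0.41 for SFRP1 against DKK3 and -0.14 for SFRP4 against DKK3. All 4 ratios were without overlap between the groups. Exact two-sided permutation then gives the smallest possible value, p = 0.1 for each (adjusted p = 0.1 over 4). Since the pairs were picked from these same values, that p only restates the lack of overlap.

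FRZB, which also binds Wnt, and SFRP5 were too low for a comparison. FRZB was above 0 only in agomir library 2, and SFRP5 only in agomir library 3 and agomir NC library 1. WIF1, which binds Wnt without a Frizzled-like domain, was listed at 0 throughout.

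DKK3 is a divergent member of the Dickkopf family, and its action on LRP5 and LRP6 is less clear than that of DKK1. Its level was 60.4, 57.8 and 60.9 FPKM with the agomir and 61.2, 65.8 and 64.8 FPKM with the agomir NC. The groups did not overlap, but agomir library 3 and agomir NC library 1 lay close together. The mean level was 0.934 times that of the agomir NC group, 59.7 ± 1.67 against 63.9 ± 2.46 FPKM (SD, n = 3 each). In limma the log2 difference was -0.097 (95% interval -0.20 to 0.0067, standard error 0.046, adjusted p = 0.485), and the unadjusted p of 0.0636 did not pass 0.05. It passed in 3 of 15 alternatives, without a filter, with median-ratio scaling and without agomir NC library 1.

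DKK2, a ligand of LRP5 and LRP6, had a mean of 0.411 FPKM, below the filter. Its level was 0.698, 0.417 and 0.510 FPKM in the agomir group, against 0.286, 0.311 and 0.247 FPKM in the agomir NC group. The agomir libraries all lay above the agomir NC libraries, with agomir library 1 the highest. The mean level was 1.93 times that of the agomir NC group, 0.542 ± 0.143 against 0.281 ± 0.0322 FPKM (SD, n = 3 each). In the limma fit without a filter, DKK2 had a log2 fold change of 0.41 (adjusted p = 0.466, standard error 0.12), and it passed the unadjusted threshold, as did 5.23% of the 18467 genes of that fit in the same direction. Exact two-sided permutation gave p = 0.1. With a pseudocount of 0.1 in place of 0.5 the difference in log2 means was 0.73, and with a pseudocount of 1 it was 0.26, so its size rests on the pseudocount. DKK1, the best known of the LRP5 and LRP6 blockers, was listed at 0.

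The other genes of the Wnt pathway were taken from lists. Of 90 such genes, 88 were in the table, and TRABD2A and CCN4 were not analysed here. Of the 49 tested, 3 were higher and 4 lower at an unadjusted p under 0.05, where 6.63% of all genes were higher and 4.31% lower, 0 passed after adjustment with limma, and the median log2 fold change was 0.0082. Together 7 of 49 passed in either direction, beside the 10.9% of all genes given above, and the list was not tested as a set. Without agomir library 2 that count was 4, and the count over all genes went from 1359 to 1006.

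Among 7 tested genes of the other secreted or membrane inhibitors, 2 were lower (4.31% of all genes) and 0 higher at the unadjusted threshold, with a median log2 fold change of -0.063. SERPINF1, a secreted serpin reported to bind LRP6, had 120.0, 110.5 and 112.5 FPKM with the agomir and 127.0, 148.8 and 146.1 FPKM with the agomir NC. Its groups did not overlap, and its log2 fold change was -0.29 (limma adjusted p = 0.218). IGFBP4, an IGF-binding protein also reported to block Wnt receptors, had 116.7, 122.3 and 125.2 FPKM against 132.5, 139.8 and 140.1 FPKM, without overlap (log2 fold change -0.18, limma adjusted p = 0.259). KREMEN1, a co-receptor of Dickkopf proteins, also lay lower without overlap, at 4.99, 4.98 and 4.84 FPKM against 5.90, 5.08 and 5.06 FPKM, but did not pass the unadjusted threshold (limma adjusted p = 0.695).

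Of the Wnt ligands and their export genes, 4 of 21 were tested, and 0 passed the unadjusted threshold in either direction. WNT5A, a ligand known mainly for β-catenin-independent signaling, was the most abundant at a mean of 36.2 FPKM, beside the export genes WLS at 28.9 FPKM and PORCN at 2.31 FPKM. WNT5B, a ligand below the filter like DKK2, gave 0.104, 0.211 and 0.109 FPKM with the agomir, against 0.322, 0.288 and 0.291 FPKM with the agomir NC. Its groups did not overlap, and in the limma fit without a filter its log2 fold change was -0.32 (adjusted p = 0.449), past the unadjusted threshold, as were 3.45% of the genes of that fit in the same direction. The FPKM of SFRP4 was 21.0, 21.3 and 22.4 times that of WNT5A with the agomir and 23.1, 26.6 and 27.3 times with the agomir NC. Of the R-spondins and their receptors, which strengthen Wnt signaling, 2 of 7 were tested and 0 passed. LGR4 had a mean of 19.05 FPKM, RSPO3 of 2.64 FPKM and RSPO2 of 0.016 FPKM.

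Of 13 tested Wnt receptors, 1 was higher (6.63% of all genes) and 2 were lower (4.31%) at the unadjusted threshold. Their median log2 fold change was -0.041. PTK7, a co-receptor without kinase activity, had 28.5, 25.1 and 25.6 FPKM with the agomir and 29.6, 30.3 and 31.9 FPKM with the agomir NC (log2 fold change -0.21, limma adjusted p = 0.310). FZD1 was also lower without overlap (log2 fold change -0.14, limma adjusted p = 0.406), and FZD4 was higher with overlapping groups (log2 fold change 0.20, limma adjusted p = 0.427). The unadjusted call of FZD1 was lost in 5 of 6 fits with 1 library left out, and that of FZD4 in 8 of 15 alternatives, among them both other scalings. RYK and ROR2 were the most abundant receptors, at means of 56.5 and 42.2 FPKM. Inside the cell, 0 of 20 tested genes of the β-catenin destruction complex and its transducers passed in either direction. CTNNB1, which encodes β-catenin, gave 186.4, 193.3 and 191.8 FPKM with the agomir, against 195.8, 198.8 and 201.6 FPKM, lower without overlap (limma adjusted p = 0.593). CSNK1D gave 29.3, 31.2 and 28.4 FPKM against 26.8, 27.6 and 27.4 FPKM, higher without overlap (limma adjusted p = 0.460), and passed the unadjusted threshold without a filter and without agomir library 3. In the same list, BCL9L passed it without agomir NC library 2 and TCF7L2 without agomir NC library 3. Among all genes tested, 6.36% were lower and 10.9% higher without overlap. CSNK1A1 had a mean of 75.8 FPKM.

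Among 6 tested genes raised by β-catenin in many cell types, 2 were higher (6.63% of all genes) and 0 lower, with a median log2 fold change of 0.079. CCND1, which encodes cyclin D1, had 32.9, 38.6 and 34.8 FPKM with the agomir and 29.0, 30.1 and 25.7 FPKM with the agomir NC (log2 fold change 0.32, limma adjusted p = 0.252). MYC, a growth regulator, was higher without overlap (log2 fold change 0.16, limma adjusted p = 0.381), but its unadjusted call was lost without agomir library 2, agomir library 3 or agomir NC library 1. Both genes also respond to many other signals. AXIN2, a more specific target of the pathway, overlapped between the groups, at means of 0.602 and 0.581 FPKM, and TCF7 had a mean of 1.87 FPKM. NKD1, in the same list as CCND1 and MYC, had a mean of 0.066 FPKM, below the filter, and was listed at 0 in agomir libraries 1 and 3. In the limma fit without a filter NKD1 was lower with overlapping groups (limma unadjusted p = 0.0499, adjusted p = 0.575). It was just past the unadjusted threshold, as were 3.45% of the genes of that fit in the same direction. The difference rests on these entries of 0, so no fold is given.

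**Figure D2:**
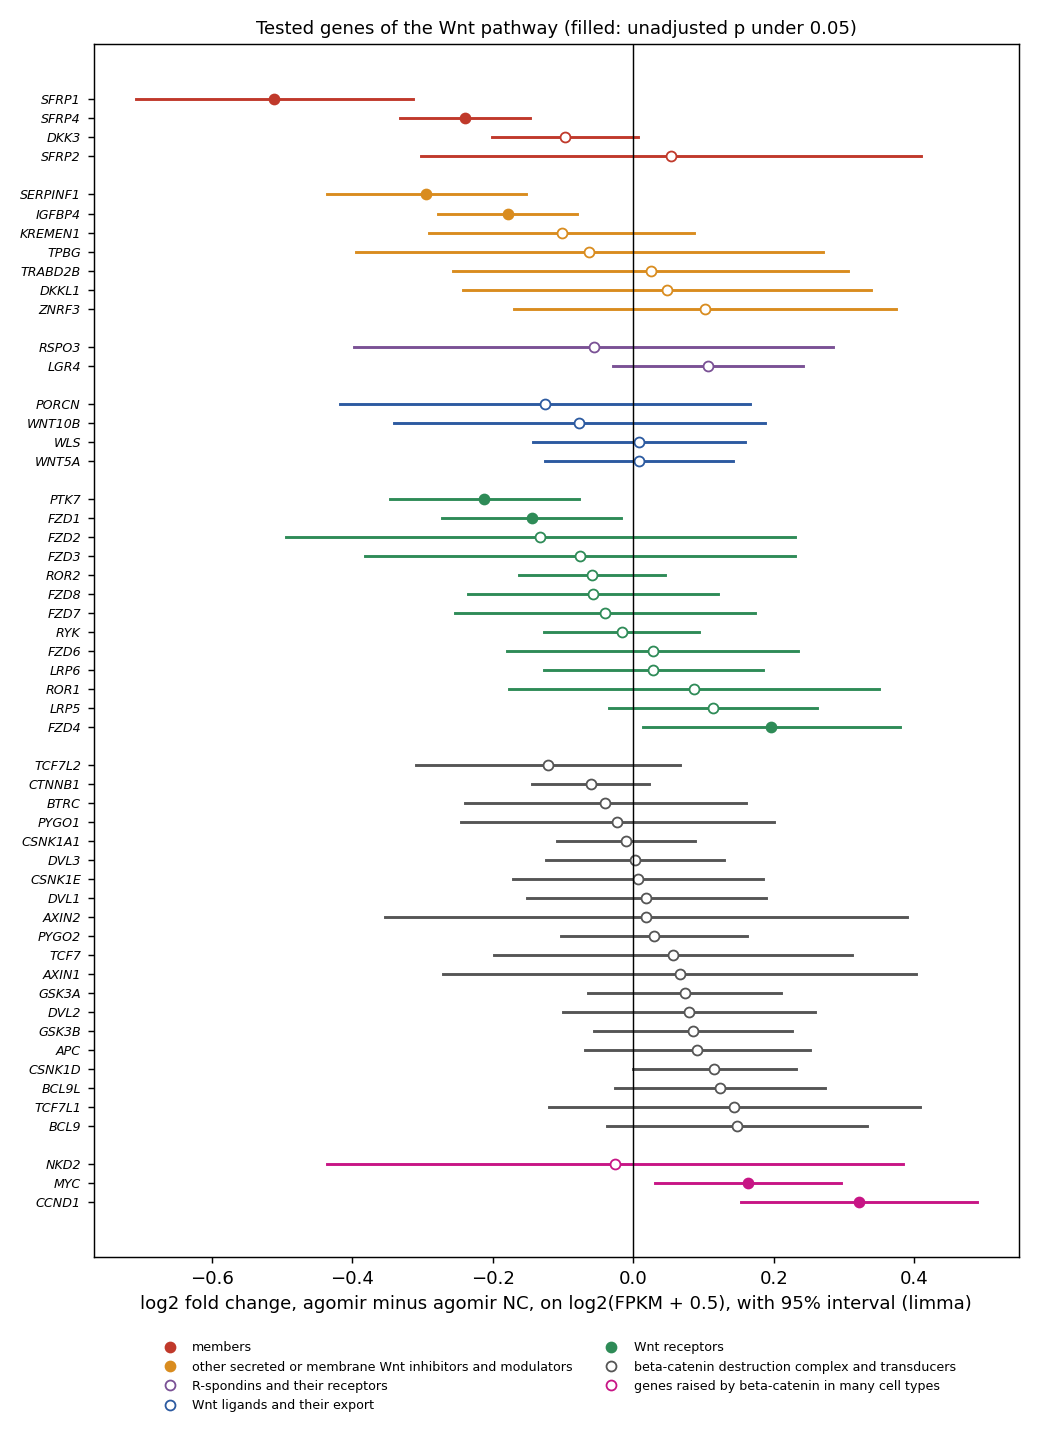
Log2 fold change, agomir minus agomir NC, on log2(FPKM + 0.5) with its 95% interval from limma, for the tested members and the other tested genes of the Wnt pathway, coloured by list, each gene under its first list. Filled points are at an unadjusted p under 0.05; SFRP1 has the lowest value of these genes at -0.51 and CCND1 the highest at 0.32.

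The pattern of SFRP1 over the 6 libraries was compared with that of 11251 other tested genes with a symbol, as a description without a p. The libraries are the same for all genes, and any gene that differs between the groups in the same direction scores high. The most alike were LRRC45, a centrosome protein gene (Pearson r = 0.996), SLC1A5, a glutamine transporter gene (0.986), RNF185, a ubiquitin ligase gene (0.984), WASF3, an actin regulator gene (0.982), and COLEC12, a scavenger receptor gene (0.981). COLEC12 gave 3.62, 3.85 and 3.41 FPKM in the agomir group, against 4.39, 5.06 and 5.05 FPKM in the agomir NC group. Among the members, SFRP4 had r = 0.963 and position 30, DKK3 had r = 0.823 and position 427, and SFRP2 had r = 0.088 and position 4411.

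Genes next to the members in the gene order of the RefSeq table were chosen by position after the members' values were seen. Of 17 such genes, 2 were listed at 0 in all libraries and 11 were tested. Among the 11, 1 was lower and 1 higher without overlap, and 17.2% of all genes tested did not overlap in either direction, so 2 of 11 is near that share. EPDR1, which encodes an ependymin-related secreted protein, lies beside SFRP4 and had 43.3, 42.0 and 41.3 FPKM with the agomir and 46.7, 47.3 and 48.6 FPKM with the agomir NC. Its groups did not overlap (log2 fold change -0.17, limma adjusted p = 0.279). NME8, on the other side of SFRP4, overlapped between the groups, at means of 1.30 and 1.75 FPKM. Beside SFRP1, GOLGA7 overlapped at means of 31.0 and 30.5 FPKM, and ZMAT4 was listed at 0. The flanking genes of DKK3, MICAL2 and USP47, also overlapped between the groups. NCKAP1, beside FRZB, was the higher one, with 49.2, 51.8 and 48.8 FPKM in the agomir group, against 46.2, 47.2 and 46.6 FPKM in the agomir NC group (log2 fold change 0.096, limma adjusted p = 0.467).

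Markers of other cell types were read beside the members. Among 9 tested genes of fibroblasts and precursors, 0 were higher (6.63% of all genes) and 1 was lower (4.31%) at the unadjusted threshold. This was DCN, a matrix proteoglycan gene, at 2840, 2899 and 2850 FPKM against 2991, 3102 and 3248 FPKM (log2 fold change -0.12, limma adjusted p = 0.376). Its call was lost in 5 of 15 alternatives, among them quantile normalization, where its difference was 0. That scaling gives equal values to any gene of the same rank in every library, so the 0 cannot speak to the call. Of 7 tested genes of mature adipocytes, 1 was higher and 1 lower at that threshold, beside the same shares of all genes. PPARG was higher (log2 fold change 0.23, limma adjusted p = 0.407) and FABP4 was lower with overlapping groups (log2 fold change -0.49, limma adjusted p = 0.363). The unadjusted call was lost in 3 of 15 alternatives for PPARG and in 2 of 15 for FABP4, in each case with 1 library left out. Endothelial genes summed to at most 4.83 FPKM, with VWF the highest at a mean of 3.39 FPKM and EMCN listed at 0. Leukocyte genes summed to at most 8.74 FPKM, with CD14 the highest at a mean of 6.27 FPKM and PTPRC at 0.057 FPKM. Smooth muscle and pericyte genes summed to 233, 227.5 and 223 FPKM against 246.5, 216 and 238 FPKM, mostly ACTA2 at a mean of 207 FPKM. CNN1 had a mean of 15.0 FPKM and CSPG4 of 5.13 FPKM, and the pericyte marker RGS5 was the lowest of the list at 0.014 FPKM. Of the endothelial, leukocyte and smooth muscle lists, 0 tested genes passed the unadjusted threshold. Skeletal muscle and epithelial genes were near 0, with sums of at most 0.309 and 0.414 FPKM, and PAX7 was not analysed here. Of the glial genes, S100B had a mean of 4.22 FPKM and SOX10 was listed at 0. The part of a shift among cell types in the values of SFRP1 and SFRP4 was not tested.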

How the data were processed

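The authors deposited FPKM per gene for 6 libraries. The submitters' processing notes name fastp, HISAT2, StringTie and the build ARS-UCD1.2, without versions. FPKM holds no read numbers, so depth is unknown and no counting error can be given. Groups were taken from the labels. Genes averaging 0.5 FPKM or more were compared as log2(FPKM + 0.5) with limma 3.58.1 in R 4.3.3 (two-sided moderated test, variance trend, Benjamini-Hochberg adjustment over all genes), and the model was tested on simulated data. Single genes were compared by exact permutation over libraries. A planned sign-flip test of neighbours in level is not given, because the same libraries set their order.

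The members and lists were chosen with earlier results of these data known. Named genes were the members, the 3 most abundant genes of each list, every listed gene at an unadjusted p under 0.05, and the 5 genes most like SFRP1. Other genes were picked once their values were known. Gene order alone came from RefSeq (ARS-UCD2.0), where all 9 members matched by symbol. Alternatives were other pseudocounts, filters, scalings and variance models, array weights, a replicate block, and leaving out each library.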

Additional observations from a re-analysis of the deposited data

How the results depend on the processing

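SFRP1, SFRP4 and DKK3 were lower with the agomir in all 15 alternatives. The log2 fold change of SFRP1 ranged from -0.57 to -0.46 (limma adjusted p 0.119 to 0.392), that of SFRP4 from -0.26 to -0.16 (limma adjusted p 0.119 to 0.482), and that of DKK3 from -0.13 to -0.074. Unadjusted p was under 0.05 in 15 of 15 alternatives for SFRP1 and SFRP4 and in 3 of 15 for DKK3. The count of members at that threshold was 2, but 4 without a filter, which added DKK2 and DKK3, and 3 with median-ratio scaling and without agomir NC replicate 1, which added DKK3. SFRP2 ranged from -0.14 to 0.16 and turned negative without agomir replicate 2 (-0.032) and without agomir NC replicate 1 (-0.14). With 1 library left out, 3 to 5 of 5 members kept their position by level, since SFRP2 and SFRP1 changed places without any 1 agomir library. Pseudocounts of 0.1 and 1 gave log2 differences of 0.73 and 0.26 for DKK2. Genes past an adjusted p of 0.05 in limma numbered 1, but 0 without a filter (1604 at an unadjusted p under 0.05), 0 when the variance trend was dropped (1249) and 0 with the replicate block (1260), and 0 to 2 with 1 library left out. Replicate numbers did not pair the libraries: deviations of same-numbered libraries correlated at -0.051, 0.053 and 0.039. The block changed no member's call. Pathway genes at the unadjusted threshold numbered 7, 9 without a filter (WNT5B, CSNK1D and NKD1 added, FZD4 lost), and 4 to 7 with 1 library left out, 4 without agomir replicate 2. DCN gave 0 under quantile normalization, which gives equal values to any gene of the same rank in every library. The cause of the other shifts was not tested. Depth is unknown, so its effect on low members was not tested.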
